A study of Homo sapiens with 12 samples.

Results

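The NRF2, glutathione and antioxidant genes were 41 genes, listed by symbol and matched to 41 of the 60675 genes in the count files. They hold the transcription factor NRF2 (gene NFE2L2) and its repressor KEAP1, stress-induced NRF2 targets, and the enzymes of glutathione synthesis, recycling and conjugation. Also among them are enzymes linked to NADPH supply, the peroxiredoxins, superoxide dismutases and catalase, and 3 exporters of conjugates. Their transcripts were followed in LNCaP:C4-2 cells (C4-2), a castration-resistant prostate cancer line derived from LNCaP, and in libraries labelled LNCaP, the androgen-dependent parent line. All 12 libraries came from cells kept in hormone-depleted medium with the synthetic androgen R1881 at 1 nM for 72 h, with DMSO as the vehicle. Of the 8 C4-2 libraries, 2 had R1881 alone, 2 also had namoline (50 µM), which inhibits the histone demethylase KDM1A, 2 had TCE-5002, which was made to inhibit the demethylase KDM7A selectively, and 2 had both inhibitors (combination). The libraries labelled LNCaP were 2 with R1881 alone and 2 with the combination. For TCE-5002 the series text gives 100 µM and the study's methods a smaller amount, which leaves its dose here uncertain. The paper states that TCE-5002 also acts on KDM7B (PHF8) and KDM2A, so effects through these targets and through KDM7A cannot be told apart here. The 2 libraries of a group are biological replicates by the study's methods.

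NRF2 is held at a low level by KEAP1, which delivers it to the proteasome. When KEAP1 is modified by electrophiles or oxidants, or is bound by the adaptor protein p62 (SQSTM1), NRF2 accumulates in the nucleus and binds antioxidant response elements near genes of glutathione synthesis, NADPH supply and the thioredoxin system. Much of this regulation acts on the protein, so the NFE2L2 transcript and the transcripts of NRF2 targets can move separately. In prostate cancer the glutathione transferase GSTP1 is known for its silencing, and LNCaP is one of the lines in which it is silent.

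The core of the antioxidant response element, TGACNNNGC on either strand, was searched in RefSeq promoter windows (GRCh38.p14), which run from 250 bases before to 50 bases after the transcription start. Windows were found for 32 of the 41 genes. A match lay in 11 of their 45 windows (24.4%), belonging to 10 genes, against 13.3% of the 35116 windows of all genes. The 5 windows below are 60 bases each, 5′ to 3′ on the strand of the gene, with the core in capitals. They are shown because GCLM, TXNRD1 and ME1 rose with the combination in both sets of libraries by adjusted p, PGD rose with namoline, and GSTP1 had the largest difference between the 2 sets.
GCLM: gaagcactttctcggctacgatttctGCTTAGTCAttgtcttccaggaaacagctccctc
TXNRD1: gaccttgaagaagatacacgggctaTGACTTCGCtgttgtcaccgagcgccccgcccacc
ME1: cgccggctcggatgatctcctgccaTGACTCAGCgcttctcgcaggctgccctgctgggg
PGD: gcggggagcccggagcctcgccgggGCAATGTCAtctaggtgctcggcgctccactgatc
GSTP1: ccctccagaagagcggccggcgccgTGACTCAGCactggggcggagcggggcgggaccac
In the order shown these are chr1:93909431-93909490 on the minus strand, chr12:104215655-104215714 on the plus strand, chr6:83431154-83431213 on the minus strand, chr1:10398838-10398897 on the plus strand and chr11:67583721-67583780 on the plus strand. The core reads in the direction of the gene in TXNRD1, ME1 and GSTP1, and on the opposite strand in GCLM and PGD. Counted from the start as 0, its first base lay at -34 in GCLM, -99 in TXNRD1, -137 in ME1, -201 in PGD and -66 in GSTP1. The core was also present in a window of GPX2, GSTA4, GSTO1, KEAP1 and MGST1. The AP-1 site TGANTCA, searched on both strands, was present in 7.71% of all windows and in 3 of the genes, ME1, GSTP1 and OSGIN1, and in the first 2 of these it overlapped the core. Of the genes that rose most, OSGIN1, SRXN1 and SQSTM1 had windows in the table without the core, which says only that these letters are not within that distance of the annotated start.

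The 12 libraries held 14791602 to 20690819 gene counts. Levels are given as CPM, gene counts scaled to a common library size with TMM factors, in the order replicate 1 and replicate 2. In bulk RNA such as this, fewer cells of a type and less RNA per cell cannot be told apart. Of 14 luminal epithelial markers, 14 reached a mean of 1 CPM in every C4-2 group and 13 in the groups labelled LNCaP, where their summed level was lower, 444 to 1059 CPM against 2661 to 6686 CPM in C4-2. Mesenchymal markers summed to 777 to 959 CPM in the libraries labelled LNCaP and to 16.9 to 46.7 CPM in C4-2, with vimentin at 641 and 733 CPM in the former with R1881 alone and at 2.62 and 2.28 CPM in C4-2, and E-cadherin (CDH1) at 44.6 and 39.6 against 949 and 1007 CPM. Blood markers summed to at most 4.05 CPM and endothelial markers to at most 8.72 CPM. High vimentin and low E-cadherin go against the label LNCaP, so these are called the libraries labelled LNCaP throughout, and an effect of the line cannot be told apart from one of cell identity. The file of combination replicate 1 of this group names, in its header, an input with namoline and without TCE-5002, so results on the combination in this group are also given without it. In C4-2 the replicates with TCE-5002 differed most, with 24.8 as the mean chi-square per gene between them against 3.34 to 8.71 in the other C4-2 groups.

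With namoline alone, more of the antioxidant genes rose than fell in C4-2. Of the 39 members that passed the filter on low counts, 9 were past the threshold (edgeR adjusted p under 0.05 and at least 2-fold), all of them higher. That is 23.1% of those tested, where 12.1% of the 17702 genes tested were called in either direction, 5.17% as higher and 6.88% as lower. By adjusted p alone 27 members changed, 24 higher and 3 lower, where 35.0% of all genes did, 18.7% higher and 16.3% lower, and the median log2 fold change was 0.41 against 0.00 over all genes. The 9 were the NRF2 targets OSGIN1 and SRXN1, the peroxiredoxin PRDX1, glutathione reductase (GSR), 6-phosphogluconate dehydrogenase (PGD), the transferase GSTM3, transketolase (TKT), thioredoxin reductase (TXNRD1) and the peroxidase GPX2.

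TCE-5002 alone left most members within 2-fold of R1881. Only GSTM3 and PRDX1 were past the threshold, both higher, which is 5.13% of the 39 tested against 11.8% of all genes (5.04% higher and 6.8% lower), a share below the background. At an adjusted p under 0.05 with no fold condition 18 members changed, 17 higher and 1, NFE2L2, lower, where 36.5% of all genes did, 19.9% higher and 16.7% lower, with a median of 0.32 against 0.00 for all genes. The count rested on the pair of TCE-5002 libraries, since 1 member (GSTM3) was called without replicate 1 and 5 members without replicate 2.

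The combination in C4-2 moved members both ways. Past the threshold were 9 higher and 3 lower of 39, or 30.8% against 21.7% of all genes, with 8.87% of all genes called higher and 12.8% lower. By adjusted p alone 25 members changed, 16 higher and 9 lower, where 50.3% of all genes did, 24.8% higher and 25.6% lower. The median was 0.15, against -0.03 over all genes, with single values from -1.75 to 2.78. The 4 stress-induced NRF2 targets in the list, HMOX1, SRXN1, OSGIN1 and SQSTM1, were all called higher, and so were TXNRD1, GCLM, ME1, GPX2 and ABCC3, while GPX3, MGST2 and GSTA4 were called lower. The calls of ABCC3 and GPX2 were not made by DESeq2, and both genes were under 4 CPM. ABCC3 was also not called without R1881 replicate 2 (1.76) or combination replicate 1 (1.89). GPX2 lost the call without R1881 replicate 1 (1.04), R1881 replicate 2 (1.49), namoline replicate 2 (1.27) or combination replicate 2 (0.77). Because the 3 comparisons share the R1881 libraries of C4-2, their values are set side by side and not correlated.

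**Figure D1:**
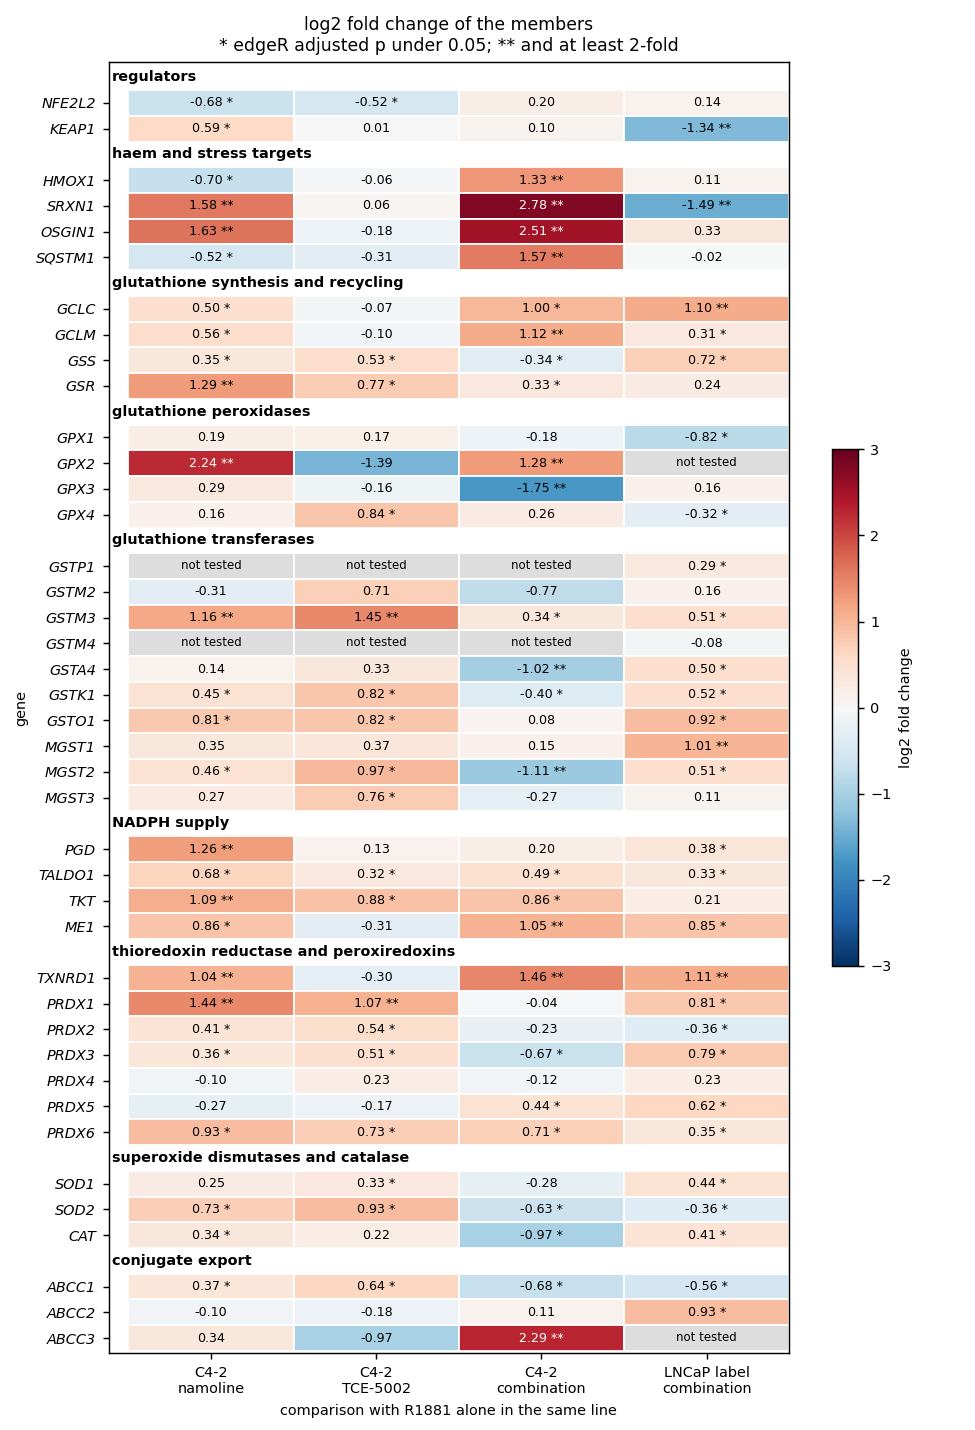
log2 fold change of every member against R1881 alone in the same line, by role, with columns for the 3 treatments of C4-2 and, last, the combination given to the libraries labelled LNCaP (colour and number; one asterisk marks edgeR adjusted p under 0.05, a pair of asterisks also at least 2-fold). The stress targets reached 1.33 to 2.78 with the C4-2 combination, and 9 members were called higher with namoline.

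The regulators NFE2L2 and KEAP1 stayed within 2-fold of R1881 under each treatment of C4-2. NFE2L2, which encodes NRF2 (ENSG00000116044, chromosome 2, 177227595 to 177392697) stood at 109 and 107 CPM with R1881 in C4-2, at 69.3 and 67.0 CPM with namoline, at 84.7 and 65.3 CPM with TCE-5002 and at 122 and 129 CPM with the combination. Both libraries of each single inhibitor were below both R1881 libraries, and both combination libraries were above them. It fell with namoline (log2 fold change -0.68, SE 0.13, edgeR adjusted p 0.000797) and with TCE-5002 (log2 fold change -0.52, SE 0.12, edgeR adjusted p 0.00455), in each case by less than 2-fold. With the combination the change did not pass the test (log2 fold change 0.20, SE 0.12, edgeR adjusted p 0.199). The departure from additivity, combination minus both single effects, was past the threshold (log2 fold change 1.40, SE 0.18, edgeR adjusted p 1.16e-05).

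KEAP1 (ENSG00000079999, chromosome 19, 10486120 to 10503741), the adaptor that targets NRF2 for degradation, was at 72.4 and 76.1 CPM with R1881 and rose to 107 and 119 CPM with namoline (log2 fold change 0.59, SE 0.11, edgeR adjusted p 0.000918). With TCE-5002 it was at 70.8 and 79.0 CPM and with the combination at 80.3 and 81.3 CPM, and neither passed the test (edgeR adjusted p 0.942 and 0.492). After the GC correction the TCE-5002 value of KEAP1 was -0.23 and passed the test (edgeR adjusted p 0.0251). In those labelled LNCaP it went from 147 and 149.6 CPM with R1881 to 61.6 and 51.5 CPM with the combination. This fall was past the threshold (log2 fold change -1.34, SE 0.11, edgeR adjusted p 5.43e-12), and was -1.47 without combination replicate 1 and -0.97 after a correction for GC content, which is under 2-fold. NFE2L2 in those libraries was at 53.5 and 60.1 and 56.1 and 63.7 CPM, with overlapping groups (log2 fold change 0.14, or 0.22 without combination replicate 1, neither past the test).

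**Figure D2:**
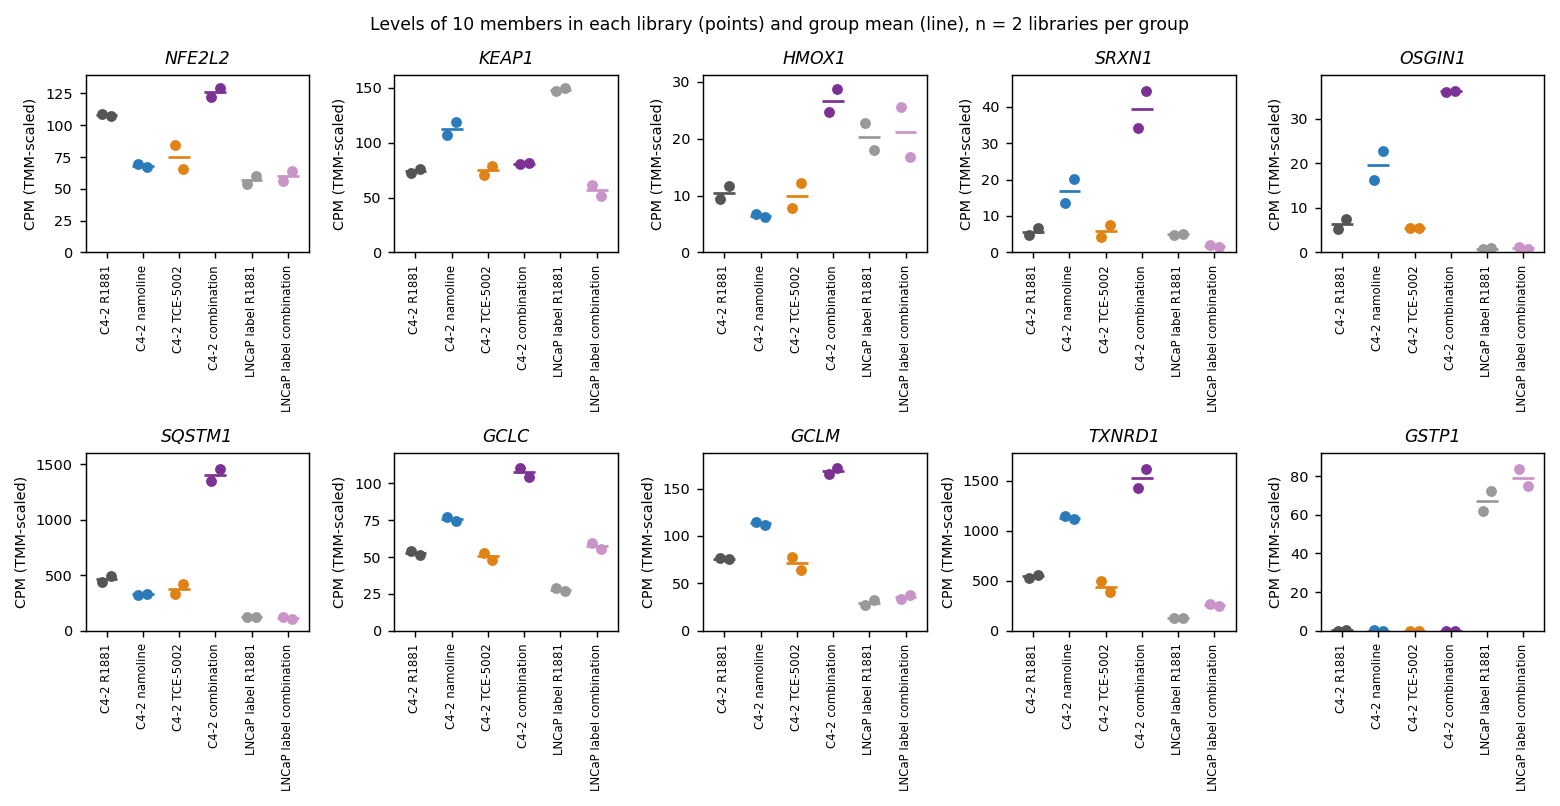
CPM in each library (points) and group mean (line) for 10 members in the 6 groups, each panel on its own linear axis from 0. HMOX1, SRXN1, OSGIN1, SQSTM1, GCLC, GCLM and TXNRD1 had their highest group mean in the C4-2 combination, and GSTP1 was near 0 in all C4-2 libraries.

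The 4 stress-induced NRF2 targets all rose with the combination. SRXN1 (ENSG00000271303, chromosome 20, 646615 to 653370), sulfiredoxin, which repairs over-oxidised peroxiredoxins, was at 4.69 and 6.63 CPM with R1881, 13.6 and 20.2 CPM with namoline, 4.20 and 7.45 CPM with TCE-5002 and 34.1 and 44.3 CPM with the combination. The namoline and combination libraries lay above every R1881 and TCE-5002 library. It rose with namoline (log2 fold change 1.58, SE 0.26, edgeR adjusted p 0.000359) and with the combination (log2 fold change 2.78, SE 0.26, edgeR adjusted p 1.15e-06), while TCE-5002 alone gave 0.06 (edgeR adjusted p 0.894). Of its annotated exonic bases, 85.0% also belong to ENSG00000270299 on the same strand, and fragments there were left uncounted.

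OSGIN1 (ENSG00000140961, chromosome 16, 83948282 to 83966332), an oxidative stress-induced growth inhibitor, was at 5.20 and 7.41 CPM with R1881, 16.3 and 22.7 CPM with namoline, 5.49 and 5.52 CPM with TCE-5002 and 36.0 and 36.3 CPM with the combination. Like SRXN1 it rose with namoline (log2 fold change 1.63, SE 0.20, edgeR adjusted p 2.09e-05) and with the combination (log2 fold change 2.51, SE 0.19, edgeR adjusted p 2.12e-07). Its TCE-5002 change was -0.18 (edgeR adjusted p 0.547). The combination exceeded the sum of the single effects for both genes, by 1.15 (SE 0.37) for SRXN1 and 1.06 (SE 0.27) for OSGIN1 on the log2 scale. Both calls rested on single libraries. The SRXN1 value was 0.81 without TCE-5002 replicate 1, 0.89 without R1881 replicate 2, 0.91 without namoline replicate 1 and 0.98 without combination replicate 2. The OSGIN1 value was 0.79 without R1881 replicate 2 and 0.85 without namoline replicate 1.

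HMOX1 and SQSTM1 moved in opposite directions with namoline and with the combination. HMOX1 (ENSG00000100292, chromosome 22, 35380361 to 35394214), the haem oxygenase, stood at 9.33 and 11.6 CPM with R1881, 6.69 and 6.24 CPM with namoline, 7.83 and 12.2 CPM with TCE-5002 and 24.7 and 28.7 CPM with the combination. It fell with namoline (log2 fold change -0.70, SE 0.22, edgeR adjusted p 0.0199) and rose with the combination (log2 fold change 1.33, SE 0.20, edgeR adjusted p 7.52e-05), and its interaction was 2.09 (SE 0.29, edgeR adjusted p 2.93e-05). SQSTM1 (ENSG00000161011, chromosome 5, 179806398 to 179838078), the autophagy receptor p62, was at 436 and 495 CPM with R1881, 322 and 331 CPM with namoline, 332 and 417 CPM with TCE-5002 and 1347 and 1459 CPM with the combination. No C4-2 library outside the combination reached 500 CPM. SQSTM1 fell with namoline (log2 fold change -0.52, SE 0.13, edgeR adjusted p 0.00503) and rose with the combination (log2 fold change 1.57, SE 0.13, edgeR adjusted p 3.87e-07), and its interaction of 2.40 (SE 0.18, edgeR adjusted p 7.96e-08) was the largest positive one among the members that passed the test. Of its exonic bases 20.7% overlap MRNIP on the opposite strand, which the counting did not separate.

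Transcripts for the rate-limiting step of glutathione synthesis were higher with namoline and with the combination. GCLC (ENSG00000001084, chromosome 6, 53497341 to 53616970), the catalytic subunit of glutamate-cysteine ligase, was at 54.4 and 51.7 CPM with R1881, 77.3 and 74.8 CPM with namoline, 52.6 and 48.2 CPM with TCE-5002 and 111 and 105 CPM with the combination. GCLM (ENSG00000023909, chromosome 1, 93885205 to 93909456), the modifier subunit, was at 76.5 and 75.6, 115 and 112, 77.6 and 64.3 and 165 and 172 CPM in the same order. For both genes the groups with namoline and with the combination did not overlap those with R1881. GCLC rose by 0.50 with namoline and 1.00 with the combination (edgeR adjusted p 0.00291 and 5.94e-06), the latter just short of 2-fold at a fitted fold of 1.99 and past it with RLE scaling or the GC correction. GCLM rose by 0.56 and 1.12 (edgeR adjusted p 0.00173 and 2.7e-06). TCE-5002 changed neither past the test (-0.07 and -0.10, edgeR adjusted p 0.644 and 0.53).

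The enzymes that recycle and complete glutathione were not highest in the combination. GSR, which reduces oxidised glutathione with NADPH, went from 229 and 242 CPM with R1881 to 541 and 618 CPM with namoline, 438 and 364 CPM with TCE-5002 and 303 and 298 CPM with the combination. All 3 treated groups lay above R1881, and the combination was the lowest of the 3. The changes were 1.29, 0.77 and 0.33 (edgeR adjusted p 2.05e-06, 0.000202 and 0.0324) and the interaction -1.73 (SE 0.17). Glutathione synthetase (GSS) rose by 0.35 and 0.53 with the single inhibitors and fell with the combination, at 102 and 99.1 CPM against 125 and 126 CPM (log2 fold change -0.34, SE 0.10, edgeR adjusted p 0.0127).

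Thioredoxin reductase rose with namoline and with the combination. TXNRD1 (ENSG00000198431, chromosome 12, 104215779 to 104350305), which reduces thioredoxin with NADPH, was at 531 and 555 CPM with R1881, 1143 and 1114 CPM with namoline, 497 and 386 CPM with TCE-5002 and 1428 and 1619.8 CPM with the combination. The 4 namoline and combination libraries lay above every R1881 and TCE-5002 library. The change was past the threshold with namoline (log2 fold change 1.04, SE 0.13, edgeR adjusted p 2.85e-05) and with the combination (log2 fold change 1.46, SE 0.13, edgeR adjusted p 8.24e-07), and TCE-5002 gave -0.30 (edgeR adjusted p 0.0824).

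The peroxiredoxins, most of which reduce hydrogen peroxide with electrons from thioredoxin, divided by member. PRDX1 went from 219 and 236 CPM with R1881 to 642 and 608 CPM with namoline and 544 and 409.9 CPM with TCE-5002, and was at 226 and 224 CPM with the combination. It rose with each inhibitor alone (1.44 and 1.07, edgeR adjusted p 1.64e-06 and 3.08e-05), and with both together its change did not pass the test (log2 fold change -0.04, SE 0.13, edgeR adjusted p 0.802). The rise with TCE-5002 was 0.84 without replicate 1 of that group. The interaction of -2.55 (SE 0.18, edgeR adjusted p 5.47e-08) was the most negative among the members, and 24.9% of its exonic bases overlap MMACHC on the opposite strand. PRDX6 rose in all 3 comparisons (0.93, 0.73 and 0.71), and PRDX5 rose with the combination (0.44, edgeR adjusted p 0.00417). With the single inhibitors PRDX5 was at -0.27 and -0.17 (edgeR adjusted p 0.065 and 0.242). PRDX3 rose by 0.36 and 0.51 and fell with the combination, from 285 and 287 to 188 and 179 CPM (log2 fold change -0.67, SE 0.12, edgeR adjusted p 0.000319). PRDX2 rose by 0.41 and 0.54 with the single inhibitors and was at -0.23 with the combination (edgeR adjusted p 0.0745), and PRDX4 passed no test against R1881 in C4-2.

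The 4 members listed under NADPH supply, which include enzymes of the non-oxidative pentose phosphate branch, all rose with namoline by adjusted p. Of all genes 18.7% did. PGD, of the oxidative pentose phosphate pathway, was at 134 and 148 CPM with R1881 and 344 and 336 CPM with namoline (log2 fold change 1.26, SE 0.11, edgeR adjusted p 1.11e-06), with no rise that passed the test under TCE-5002 (162 and 145 CPM) or the combination (160.1 and 168 CPM). TKT and transaldolase (TALDO1), of the non-oxidative branch, rose in all 3 comparisons, TKT by 1.09, 0.88 and 0.86 and TALDO1 by 0.68, 0.32 and 0.49. The namoline value of TKT was 0.96 after the GC correction and 0.99 without namoline replicate 2. Malic enzyme (ME1), at 185 and 206 CPM with R1881, was at 358 and 361 CPM with namoline, 185 and 130.3 CPM with TCE-5002 and 409.6 and 414 CPM with the combination (log2 fold change 1.05, SE 0.14, edgeR adjusted p 2.91e-05; 0.98 without R1881 replicate 1).

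Glutathione transferases conjugate glutathione to electrophiles, and 8 of the 10 listed passed the filter in C4-2. By adjusted p, namoline raised 4 of the 8 and TCE-5002 raised 5, with none lower under either. The combination raised 1 and lowered 3. Of all genes, 18.7% were higher by adjusted p with namoline and 19.9% with TCE-5002, and 16.3% and 16.7% were lower. With the combination 24.8% of all genes were higher and 25.6% lower, so its counts among 8 genes are not read as a trait of transferases. GSTM3 was at 55.7 and 58.5 CPM with R1881, 141 and 117 CPM with namoline, 169.8 and 142 CPM with TCE-5002 and 72.6 and 74.6 CPM with the combination. It rose with TCE-5002 (log2 fold change 1.45, SE 0.13, edgeR adjusted p 1.97e-06) and with namoline (1.16, or 0.996 without namoline replicate 1), and by a smaller fitted value with the combination (0.34, edgeR adjusted p 0.0365). The microsomal transferase MGST2 had 31.7 and 29.98 CPM with R1881, 66.2 and 54.6 CPM with TCE-5002 and 14.4 and 14.6 CPM with the combination, a rise of 0.97 with TCE-5002 and a fall with the combination (log2 fold change -1.11, SE 0.15, edgeR adjusted p 2.66e-05). GSTA4, which acts on lipid peroxidation products, fell from 11.3 and 12.9 to 6.36 and 5.70 CPM with the combination (log2 fold change -1.02, SE 0.18, edgeR adjusted p 0.000371), a change that was -0.99 with RLE scaling and with the GC correction and -0.94 or -0.93 without replicate 2 of R1881 or of the combination. GSTK1 (0.45, 0.82 and -0.40) had the same pattern of signs as MGST2, and GSTO1 rose with both single inhibitors (0.81 and 0.82) and was at 0.08 with the combination. MGST3 rose with TCE-5002 (0.76), MGST1 and GSTM2 passed no test against R1881 in C4-2, and GSTM2 and GSTM4 lie among near-identical GSTM genes, so their counts are uncertain.

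Glutathione peroxidases, dismutases, catalase and exporters gave mixed values. SOD2, the mitochondrial dismutase, was at 44.9 and 44.2 CPM with R1881, 74.7 and 75.1 CPM with namoline, 95.6 and 74.4 CPM with TCE-5002 and 31.4 and 27.0 CPM with the combination, so that both single inhibitors lay above R1881 and the combination below it. The changes were 0.73, 0.93 and -0.63 (edgeR adjusted p 0.000723, 0.000116 and 0.00156). Catalase (CAT), which breaks down hydrogen peroxide in peroxisomes, fell from 122 and 126 to 64.6 and 64.4 CPM with the combination (log2 fold change -0.97, SE 0.12, edgeR adjusted p 1.12e-05) and was at 0.34 with namoline (edgeR adjusted p 0.0322). SOD1, the cytosolic dismutase, rose with TCE-5002 (0.33, edgeR adjusted p 0.0362), as did GPX4, which reduces lipid hydroperoxides (0.84, edgeR adjusted p 8.31e-05), and GPX1 passed no test against R1881 in C4-2. GPX3 and GPX2 were under 4 CPM in every C4-2 library. GPX3 fell to 0.739 and 0.751 CPM from 2.48 and 2.47 CPM with the combination (log2 fold change -1.75, SE 0.35, edgeR adjusted p 0.000887), and GPX2 rose from 0.422 and 0.585 to 1.78 and 3.0 CPM with namoline (log2 fold change 2.24, SE 0.46, edgeR adjusted p 0.00187). The exporter ABCC1 rose by 0.37 and 0.64 and fell with the combination, to 145 and 134 from 211 and 227 CPM (-0.68, edgeR adjusted p 0.0002). ABCC2 stayed under 0.7 CPM in C4-2, and ABCC3 had 18 and 10 counts with the combination against 5 and 1 with R1881, and GPX2 had 15 and 26 against 9 and 9.

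The effects of the single inhibitors did not add up in the combination for most members. The interaction was past the threshold for 23 of the 39 members tested, 5 positive and 18 negative, which is 59.0% against 35.3% of all genes, where 16.7% of all genes were called positive and 18.6% negative. Without the fold condition 35 members departed from additivity, 10 positive and 25 negative, where 53.5% of all genes did, 25.6% positive and 27.9% negative. After the GC correction the split was 7 positive and 15 negative. The 5 positive ones were SQSTM1, HMOX1, NFE2L2, SRXN1 and OSGIN1, and for each the combination was above both single inhibitors. Among the 18 negative ones the combination was below both single inhibitors in 17, PGD being the exception. In 14 of the 23 the combination lay on the other side of R1881 from both single inhibitors by the sign of the fitted change alone. Some of these changes passed no test, such as those of PRDX1 and NFE2L2 with the combination. The share of all genes with such orders was not taken, and they follow in part from calling the interaction. They are therefore not read as a trait of these members. The most negative after PRDX1 were MGST2 (-2.55, SE 0.20), SOD2 (-2.30, SE 0.19), GSTM3 (-2.27, SE 0.18) and, among those above 10 CPM, GSR. The 8 transferases tested were all below 0 by adjusted p in the main fit. Of these GSTM2, at 2.44 and 2.15 CPM with R1881, did not pass with DESeq2 (-1.13, DESeq2 adjusted p 0.116). Leaving out single libraries gave -1.50 to -0.71 for GSTM2, and it lost the call in 7 settings. After the GC correction GSS (-0.997), PRDX2 (-0.89) and TKT (-0.84) were within 2-fold.

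**Figure D3:**
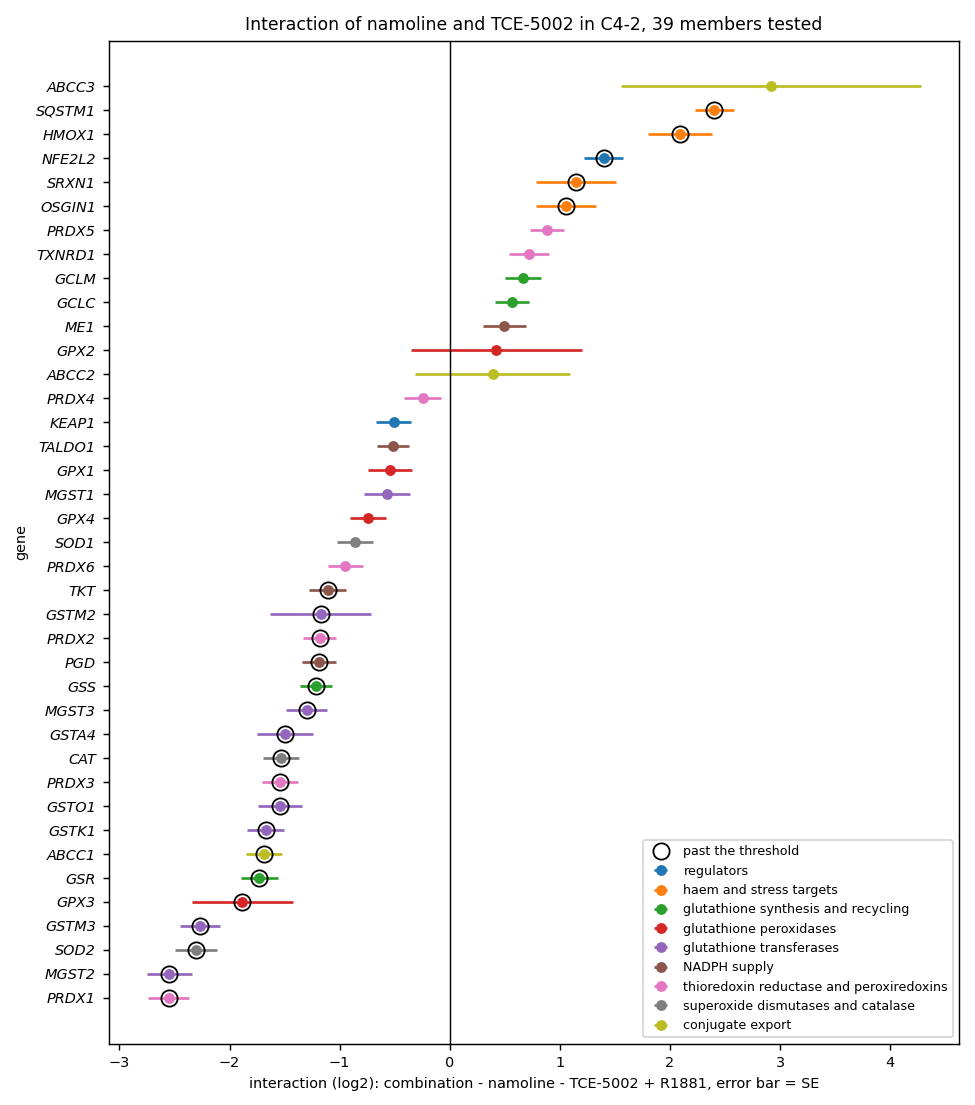
Interaction of namoline and TCE-5002 in C4-2 for the 39 members tested (log2, point with SE), sorted by value and coloured by role, with black rings on those past the threshold. The stress targets and NFE2L2 lie to the right of 0 (1.06 to 2.40), and transferases, SOD2, GSR and PRDX1 to the left (PRDX1 at -2.55).

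In the libraries labelled LNCaP the combination called 3 members higher and 2 lower of the 39 tested, or 12.8% against 18.7% of all genes (7.44% higher and 11.3% lower), a share below the background. At an adjusted p under 0.05 with no fold condition 28 members changed, 21 higher and 7 lower, where 56.2% of all genes did, 28.0% higher and 28.2% lower, with a median of 0.33 against 0.00 for all genes. Without combination replicate 1 the calls were again 3 higher and 2 lower, and 30 members passed the adjusted p, 23 higher and 7 lower. TXNRD1 went from 124 and 125 CPM with R1881 to 268 and 250.1 CPM with the combination, and GCLC from 28.9 and 26.6 to 59.5 and 55.2 CPM. Both rose past the threshold (1.11 and 1.10, edgeR adjusted p 8.89e-11 and 1.79e-09), by 1.06 and 1.04 without combination replicate 1. The microsomal transferase MGST1 rose from 10.2 and 9.97 to 19.8 and 19.5 CPM (log2 fold change 1.01, SE 0.15, edgeR adjusted p 1e-06). Its value was just under 2-fold without that replicate (1.00) or without R1881 replicate 2 (0.99), and GSTO1 was past the threshold in its place without the former (1.01). SRXN1 fell, from 4.80 and 5.15 to 2.06 and 1.37 CPM (log2 fold change -1.49, SE 0.29, edgeR adjusted p 5.62e-05; -1.80 without that replicate). After the GC correction TXNRD1, GCLC, MGST1 and KEAP1 were within 2-fold and PRDX5 was beyond it at 1.04, leaving 2 calls. HMOX1, at 25.5 and 16.9 CPM against 22.8 and 17.9 CPM, OSGIN1, at 1.21 and 0.863 against 0.792 and 0.911 CPM, and SQSTM1, at 128 and 107 against 122 and 125 CPM, overlapped between the groups and passed no test (edgeR adjusted p 0.581, 0.573 and 0.889). Without combination replicate 1 these 3 were at -0.22, 0.07 and -0.16 and again passed no test, while SQSTM1 passed it as higher after the GC correction (0.25, edgeR adjusted p 0.0105).

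The combination effect was then compared between C4-2 and the libraries labelled LNCaP in one model. It differed past the threshold for 11 of the 41 members, 5 more positive and 6 more negative in C4-2, which is 26.8% against 25.3% of all genes (11.4% more positive and 13.9% more negative) and so close to the background. By adjusted p alone 25 differed, 11 more positive and 14 more negative, where 47.6% of all genes did, 21.7% more positive and 25.9% more negative. The 5 were SRXN1 (4.23, SE 0.30), OSGIN1 (2.14, SE 0.40), SQSTM1 (1.54, SE 0.13), KEAP1 (1.38, SE 0.13) and HMOX1 (1.17, SE 0.24), with edgeR adjusted p between 9.37e-11 and 0.000221. The 4 stress targets were all among them, and HMOX1 lost the call without combination replicate 2 of the libraries labelled LNCaP (0.89) and after the GC correction (0.96). The 6 were GPX3 (-1.96), MGST2 (-1.68), GSTA4 (-1.57), PRDX3 (-1.51), CAT (-1.43) and GSS (-1.12, or -0.90 without R1881 replicate 1 of the libraries labelled LNCaP). For MGST2, GSTA4, PRDX3, CAT and GSS the C4-2 value was negative and the other positive, each past an adjusted p of 0.05. Without combination replicate 1 of the libraries labelled LNCaP, 13 members were called (5 more positive and 8 more negative), and all 11 named here were among them, and 25 members passed the adjusted p, 10 more positive and 15 more negative. TXNRD1, GCLC and ME1 rose in both sets of libraries. For TXNRD1 the difference was below 2-fold but passed the adjusted p, with the larger rise in C4-2 (0.30, SE 0.12, edgeR adjusted p 0.0448; 0.33 without that replicate). The differences for GCLC (-0.16, SE 0.13; -0.12 without it) and ME1 (0.14, SE 0.12; 0.15 without it) did not pass, which does not show that the effects were alike.

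**Figure D4:**
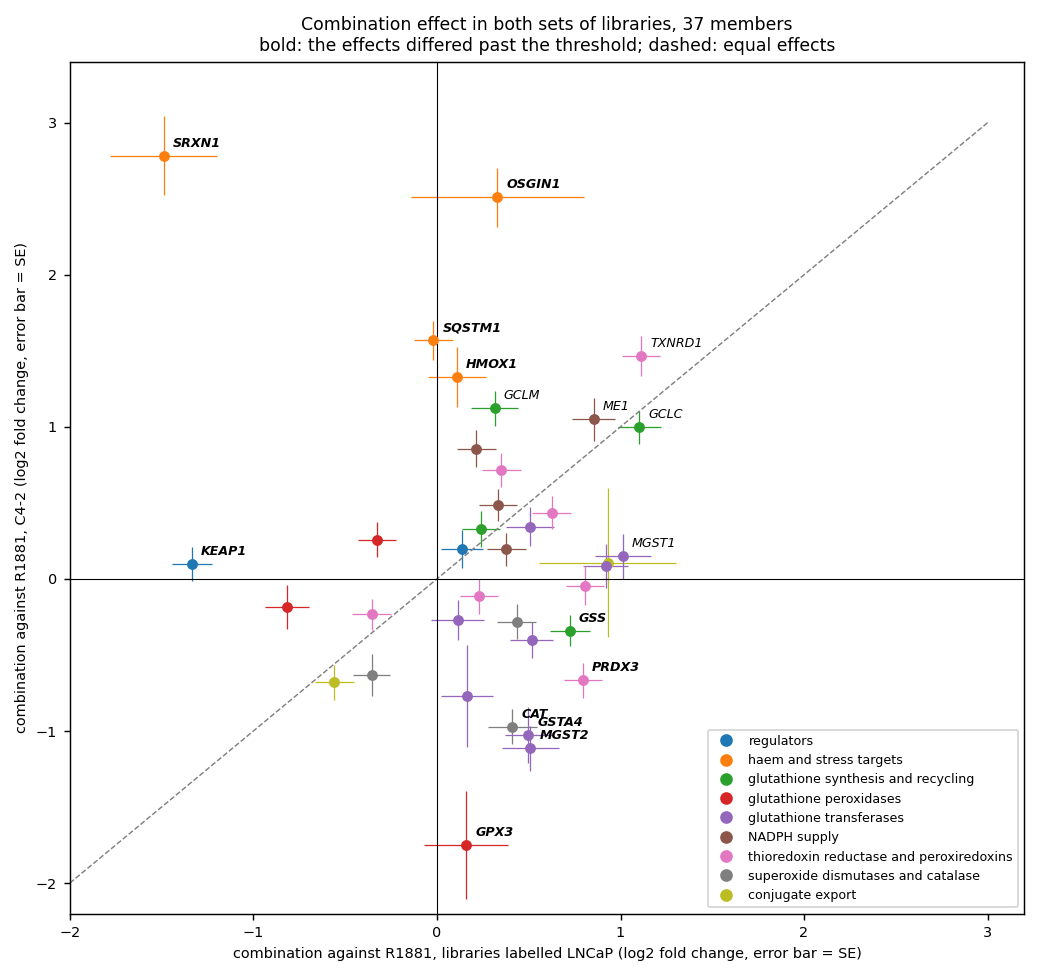
log2 fold change (point, SE bars) of the combination for the libraries labelled LNCaP (horizontal axis) and for C4-2 (vertical axis) for the 37 members tested in both, coloured by role, with the line of equal effects dashed and bold names where the effects differed past the threshold. SRXN1 lies at -1.49 and 2.78, while TXNRD1, ME1 and GCLC lie near the dashed line.

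With R1881 alone, the share of members that differed between the 2 sets of libraries was close to that of all genes. In C4-2 17 members were higher and 6 lower past the threshold, 56.1% of 41, against 50.5% of all genes (24.3% higher and 26.2% lower), and the median was 0.91 against 0.00. Without the fold condition 36 members differed, 25 higher and 11 lower, where 76.8% of all genes did, 37.8% higher and 39.0% lower. GSTP1 (ENSG00000084207, chromosome 11, 67583595 to 67586660) had 1325 and 1590 counts in the libraries labelled LNCaP with R1881 (61.7 and 72.4 CPM) and 83.5 and 74.7 CPM with the combination, a rise by adjusted p (0.29, edgeR adjusted p 0.0231) that did not pass without combination replicate 1 (0.21, edgeR adjusted p 0.114). In the 8 C4-2 libraries it had 8 counts in total and at most 3 in one, with 4 counts over both R1881 libraries. The ratio of the R1881 groups was 616, with an exact 95% interval of 240.3 to 2262 that covers counting error only. In the libraries labelled LNCaP this level goes against the known silence of GSTP1 in LNCaP. GSTM4 had 81 against 2 counts (ratio 34.2, interval 9.18 to 288), and the related GSTM2 was at 21.9 and 19.9 against 2.44 and 2.15 CPM (log2 fold change -3.15, SE 0.18, edgeR adjusted p 1.25e-13).

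Levels between genes were compared per kilobase of exon (RPKM). In C4-2 with R1881 the highest members were PRDX5 at 299.7 RPKM and PRDX1 at 149.6 RPKM, and in the libraries labelled LNCaP PRDX2 at 96.5 RPKM and PRDX6 at 93.0 RPKM. GSTP1 ranked 39 of 41 in C4-2 at 0.0632 RPKM and 10 in the libraries labelled LNCaP at 35.0 RPKM. The members higher in C4-2 by the largest log2 fold change above 10 CPM were MGST1 (201 and 211 against 10.2 and 9.97 CPM, log2 fold change 4.38), CAT (2.60), ME1 (2.59), TXNRD1 (2.15) and PRDX5 (2.12), with edgeR adjusted p of at most 3.12e-16. Lower in C4-2 were SOD2 (44.9 and 44.2 against 177 and 167 CPM, log2 fold change -1.92) and GSTA4 (-1.04). GSTA4 lost this call with the replicate block (-0.94), with the GC correction (-0.96), without C4-2 R1881 replicate 1 (-0.95) and without R1881 replicate 2 of the libraries labelled LNCaP (-0.997). OSGIN1 (2.88), SQSTM1 (1.94) and GCLM (1.38) were higher in C4-2, while SRXN1 did not differ past the test (0.19, edgeR adjusted p 0.397).

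**Figure D5:**
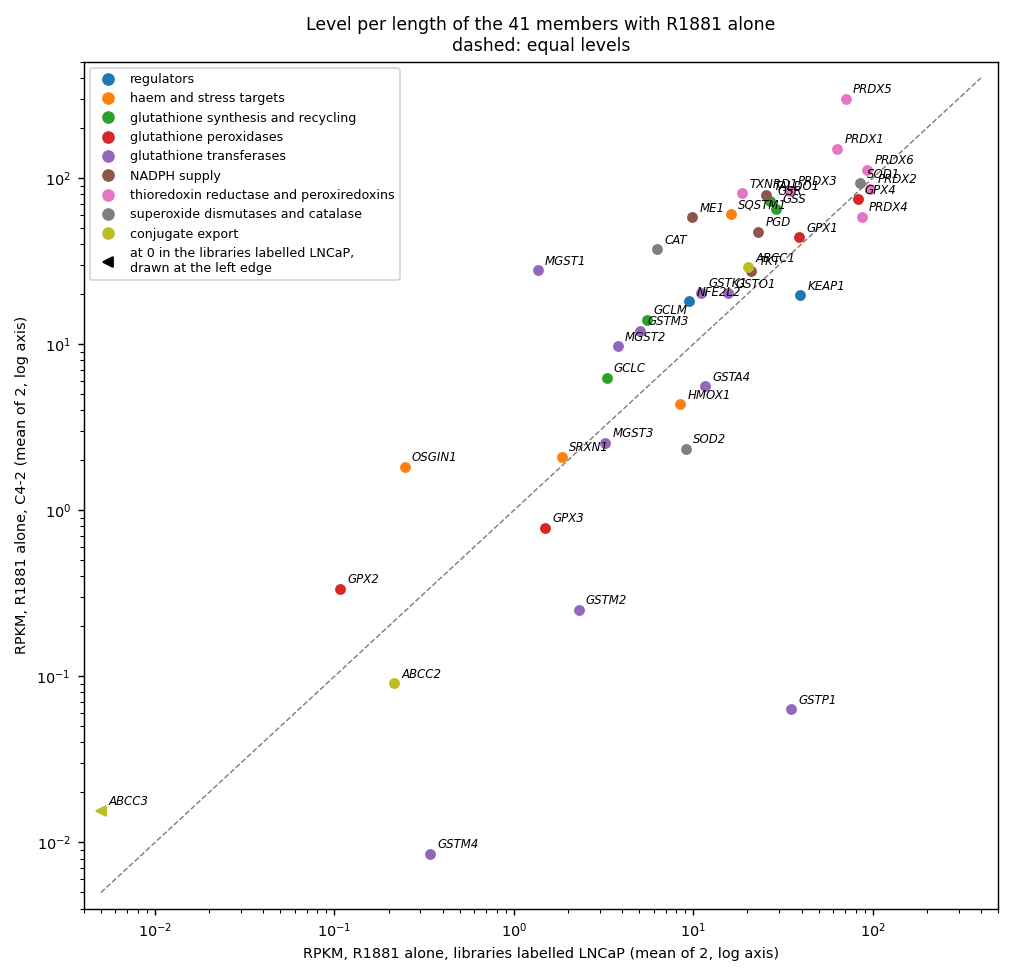
Mean RPKM of 2 libraries with R1881 alone in the libraries labelled LNCaP (horizontal) and in C4-2 (vertical) for the 41 members, both axes logarithmic, coloured by role, with the line of equal levels dashed and ABCC3, at 0 in the libraries labelled LNCaP, drawn at the left edge. GSTP1 lies far to the right of the line (35.0 against 0.0632 RPKM) and MGST1 far to the left (1.36 against 27.7 RPKM).

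A second list of 57 genes of the same pathway, none of them a member, gave 55 tested genes in C4-2. With namoline 6 were called higher and 7 lower (23.6%), with TCE-5002 3 and 6 (16.4%), with the combination 6 and 11 (30.9%), beside 12.1%, 11.8% and 21.7% of all genes. In the libraries labelled LNCaP the combination called 2 and 3 of 54 (9.26%), beside 18.7% of all genes. Without combination replicate 1 it called 5 and 6 of 55, so the low share of this list depended on that library. The share of all genes was not taken in that setting. The medians were 0.14, 0.28, -0.15 and 0.15 in the same order, against 0.00, 0.00, -0.03 and 0.00 over all genes. The 4 genes of cystine supply and transsulphuration (SLC7A11, SLC3A2, CBS and CTH) were lower by adjusted p with each inhibitor alone. Of all genes 16.3% were lower by adjusted p with namoline and 16.7% with TCE-5002. SLC7A11, the cystine importer, went from 622 and 583 CPM with R1881 to 171 and 122 CPM with namoline and 197 and 199 CPM with TCE-5002 (-2.05 and -1.60, edgeR adjusted p 1.25e-07 and 1.94e-06), and was at 452 and 456 CPM with the combination (-0.43). Cystathionine gamma-lyase (CTH) fell in all 3 comparisons (-2.82, -1.37 and -1.40), and so did CHAC1, which degrades glutathione (-4.75, -2.09 and -1.98, and -1.58 for the combination in those labelled LNCaP, or -1.92 without combination replicate 1).

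Other genes of the second list moved with the combination. MAFF, a small MAF protein that partners NRF2 on DNA, rose from 3.94 and 3.90 to 33.6 and 38.9 CPM (log2 fold change 3.18, SE 0.21, edgeR adjusted p 4.02e-08), and SLC3A2, the partner of SLC7A11, from 484 and 508 to 1356 and 1441 CPM (1.47, against -1.22 with namoline). The mitochondrial malic enzyme ME2 rose in C4-2 (1.52) and in those labelled LNCaP (1.14, or 1.12 without combination replicate 1). The peroxidase family member GPX8 fell (-1.86), and gamma-glutamyltransferase GGT1 rose with TCE-5002 (1.65) and fell with the combination (-1.52). With namoline the carbonyl reductase CBR1 (1.51), UGDH (1.21) and the glutaredoxin GLRX (1.29) rose. With TCE-5002 the mitochondrial thioredoxin reductase TXNRD2 (1.09) and thioredoxin (TXN, 1.04) rose, both just past 2-fold in replicates that lay apart. TXNRD2 was at 135 and 180 CPM with TCE-5002 against 74.6 and 73.2 CPM with R1881. TXN was at 205 and 145 CPM against 91.0 and 79.3 CPM. In the libraries labelled LNCaP MSRB2 rose (1.09) and the second haem oxygenase HMOX2 fell (-1.35), with 1.12 and -1.30 without combination replicate 1, and these genes were all past the threshold in the comparison named.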

How the data were processed

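Polyadenylated RNA was sequenced in paired ends by the authors, who trimmed adapters with Trim Galore and aligned reads with STAR (GRCh38). Deposited were whole fragment counts per gene, which the file headers show to come from featureCounts v1.5.0-p1 against Ensembl release 83 without a strand option, one library per file. Opposite-strand overlaps were therefore not separated, and fragments shared by genes were not counted.

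Totals were 14791602 to 20690819 counts per library. Counts were tested with edgeR 4.0.16 (R 4.3.3; quasi-likelihood F test, TMM scaling, filterByExpr, Benjamini-Hochberg adjustment over all genes) in 3 fits, covering the 8 C4-2 libraries, the 4 labelled LNCaP, and the 8 of both with R1881 or the combination. A call needed an adjusted p under 0.05 and 2-fold, and SE was taken as the size of a log2 fold change divided by the root of its F statistic. With 2 libraries a group, the spread of one gene rests on what genes share. CPM used TMM factors over 12 libraries, and RPKM divided CPM by the exon length of the files. Intervals for low counts are exact and cover counting error only. The steps were tested on simulated counts.

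Genes named were a fixed set of 10, up to 5 rising and 5 falling members per comparison past the threshold with at least 10 CPM, every other member by its values, and up to 3 rising and 3 falling genes per comparison of the second pathway list. Others named were chosen after their values were seen. The members and lists were chosen with earlier results of these data known. Alternatives were RLE scaling, no filter, DESeq2 1.42.0, adjusted p alone, the replicate block, a GC offset (loess), and leaving out each library, where a lone library was taken to vary like those of the other groups.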

Additional observations from a re-analysis of the deposited data

Results flagged for a closer look

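The combination had a different effect in C4-2 from that in the libraries labelled LNCaP for 11 members, by edgeR's test of the difference itself (adjusted p under 0.05 and at least 2-fold), a share of 26.8% beside 25.3% of all genes. Each gene is given with its log2 fold change in both sets of libraries. More positive in C4-2 were SRXN1 (2.78 in C4-2 and -1.49 in the other set, difference 4.23), OSGIN1 (2.51 and 0.33, difference 2.14), SQSTM1 (1.57 and -0.02, difference 1.54), KEAP1 (0.10 and -1.34, difference 1.38) and HMOX1 (1.33 and 0.11, difference 1.17). More negative in C4-2 were MGST2 (-1.11 and 0.51, difference -1.68), GSTA4 (-1.02 and 0.50, difference -1.57), PRDX3 (-0.67 and 0.79, difference -1.51), CAT (-0.97 and 0.41, difference -1.43), GSS (-0.34 and 0.72, difference -1.12) and GPX3 (-1.75 and 0.16, difference -1.96), the last under 10 CPM in every library. The effects in single sets come from separate fits, so their difference is close to but not equal to the fitted one. Without combination replicate 1 of the libraries labelled LNCaP, whose header names namoline only, the first 5 differences ran from 1.48 for HMOX1 to 4.52 for SRXN1 and the other 6 from -1.96 to -1.09. The marker levels that set the libraries apart (vimentin at 641 and 733 against 2.62 and 2.28 CPM with R1881) move with the line, and their part in these differences was not tested. No group had enough libraries for a test of single samples far from the rest.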

How the results depend on the processing

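Members were called in numbers within 1.5 times of the reported ones under RLE scaling, no filter, DESeq2 and the replicate block in all 7 comparisons. The GC correction left 2 calls in place of 5 for the libraries labelled LNCaP, and again 2 with the GC correction and the replicate block together. It also moved the split of the interaction to 7 positive and 15 negative, with 22 calls. Dropping the fold condition gave 27 members for namoline, 18 for TCE-5002, 25 for the combination in C4-2, 35 for the interaction, 28 for the libraries labelled LNCaP, 25 for the difference of the combination effect and 36 for the baseline. Leaving out each library gave 1 to 5 calls for TCE-5002 against 2 reported, and stayed within 1.5 times elsewhere, at 8 to 9 for namoline, 9 to 12 for the combination, 20 to 25 for the interaction, 4 to 6 for the libraries labelled LNCaP, 10 to 13 for the difference and 20 to 24 for the baseline.

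The difference of replicate 1 minus replicate 2 was correlated between groups across genes. The values were -0.04 to 0.48 in C4-2, with only namoline and the combination negative, and 0.07 in the libraries labelled LNCaP. This difference also followed GC content, at Spearman rho -0.79 to -0.25 in the C4-2 groups and 0.19 and 0.62 in those labelled LNCaP. The main fits took the numbers to name and not to pair libraries, and these values do not settle a pairing in C4-2. The fit with the replicate block gave 9, 2, 12, 23, 5, 11 and 24 calls in the order above, with the baseline last, where 9, 2, 12, 23, 5, 11 and 23 were reported. With the block GSTA4 (-0.94) and ABCC2 were no longer called at baseline, and HMOX1, KEAP1 and NFE2L2 were.

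Of 123 single-gene values under all alternatives, 1558 comparisons kept their direction and side of the threshold, 69 lost the call, 24 gained it and 27 changed sign. The values that changed sign had not been called, and the cause was not tested. Of these, KEAP1 with TCE-5002 and SQSTM1 in the libraries labelled LNCaP passed the adjusted p of edgeR in the opposite direction after the GC correction (0.0251 and 0.0105) and with the replicate block added (0.0202 and 0.0142). For TCE-5002, the GC correction gave 0.026 for GCLM, -0.23 for KEAP1 and -0.034 for SRXN1, and with the replicate block added 0.026, -0.23 and -0.067. Leaving out single libraries gave ranges for TCE-5002 of -0.25 to 0.039 for GCLM, -0.40 to 0.22 for HMOX1, -0.057 to 0.084 for KEAP1, -0.42 to 0.081 for OSGIN1 and -0.39 to 0.42 for SRXN1. In the libraries labelled LNCaP the ranges were -0.22 to 0.38 for HMOX1 and -0.16 to 0.10 for SQSTM1, and SQSTM1 was 0.25 with the GC correction, with and without the replicate block. For the difference of the combination effect they were -0.22 to 0.0085 for GCLC and -0.096 to 0.19 for NFE2L2, and GCLC was 0.11 with the GC correction, with and without the block. For the baseline of SRXN1 the range was -0.043 to 0.43, and the replicate block gave -0.051.

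Depth limited the members with group means under 4 CPM in C4-2, where few fragments set a value. These were GPX2, GPX3, GSTM2, GSTM4, GSTP1, ABCC2 and ABCC3. In the libraries labelled LNCaP OSGIN1 had 17 and 20 counts with R1881 and 20 and 17 with the combination, on which its difference between the sets rests.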

Other observations

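In the second pathway list, 4 genes with group means below 10 CPM were past the threshold with namoline and are named after their values were seen. AKR1B10, an aldo-keto reductase known as an NRF2 target in human cells, was at 0 and 0.065 CPM with R1881, 0.947 and 1.38 CPM with namoline, 0.104 and 0.161 CPM with TCE-5002 and 1.48 and 1.94 CPM with the combination. The namoline and combination libraries of AKR1B10 lay above all others, and no fold is given because an R1881 library had no count. CBR3, a carbonyl reductase, was at 2.30 and 2.47 CPM with R1881, 9.59 and 10.1 CPM with namoline and 4.03 and 4.01 CPM with the combination (2.03 on the log2 scale with namoline, SE 0.21, edgeR adjusted p 4.8e-06). PTGES, a prostaglandin E synthase of the glutathione-dependent MAPEG family, was at 0.141 and 0.13 CPM with R1881, 2.96 and 1.62 CPM with namoline and 0.114 and 0.438 CPM with the combination. The combination level of PTGES overlapped that of R1881. GSTO2, a glutathione transferase of the omega class, was lower with namoline, at 3.94 and 3.64 CPM with R1881, 1.84 and 1.08 CPM with namoline and 4.20 and 3.19 CPM with the combination (-1.39 on the log2 scale with namoline, SE 0.30, edgeR adjusted p 0.00259).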
